A study of Homo sapiens with 16 samples.

Results

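The matrix metalloproteinase (MMP), ADAM, ADAMTS and TIMP genes were followed in A673 cells after loss of EWS-FLI1. Members were all genes named by exactly 1 symbol of these families on the array. They were 52 of 11963 genes, measured by 87 of 22277 probe sets, and comprised 21 MMP, 17 ADAM, 10 ADAMTS and 4 TIMP genes. A673 is an established Ewing sarcoma line whose driver, EWS-FLI1, joins parts of EWSR1 and FLI1 into a transcription factor. All arrays came from 1 clone, Asp14, which carries a vector for a doxycycline-inducible hairpin against the fusion and a TR expression vector. All cells, those at 0 h included, were grown with Zeocin and Blasticidin to keep these vectors. RNA was taken at 0 h, when doxycycline was added (4 arrays), after 18 h and 36 h (3 arrays each) and after 53 h, 72 h and 96 h (2 arrays each) of treatment at 1 ug/ml. There was no untreated array later than 0 h, so effects of culture time, of doxycycline and of fusion loss cannot be told apart. Each of the 5 later times was compared with the same 4 arrays, so the comparisons are not independent.

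MMPs are zinc proteases that cut collagens, proteoglycans and other matrix proteins outside the cell, and most are made as inactive precursors. ADAMs are membrane proteases that release the outer parts of cell surface proteins, and ADAMTS enzymes are their secreted relatives, which act on proteoglycans and procollagens. TIMPs are small secreted proteins that bind and block these enzymes. In sarcomas the families are studied for invasion of matrix and for the release of growth factors and receptors.

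FLI1, the target of the hairpin, was lower on the arrays of every later time, its log2 change being -3.20 ± 0.14 at 18 h (SE), -3.67 ± 0.14 by 36 h and still -3.35 ± 0.16 by 96 h. The upper quartile of log2 values ranged over the 16 arrays only between 8.08 and 8.18. Precision is limited by how few arrays each time has. Replicates 2 and 3 of 0 h, 18 h and 36 h stand apart from the rest, since they were nearly alike. The SD of their difference over genes was 0.176, 0.164 and 0.186, against 0.368 to 0.528 for the other pairs of those times and 0.234 to 0.390 for the pairs of 53 h, 72 h and 96 h. Whether they came from separate cultures is not given in the sources used here, and calls that change when they are averaged into 1 array are given with that value. As a mark of RNA quality, the log2 signal of ACTB at its 3' end exceeded that at its 5' end by 2.09 to 2.45 at 36 h, against 1.47 to 2.06 at 0 h. It did so by 1.88 to 2.00 at 18 h, 1.83 to 2.34 at 53 h, 1.61 to 1.70 at 72 h and 1.56 to 1.83 at 96 h. For GAPDH the excess was 0.03 to 0.22 over all arrays. The part of RNA quality in the changes below was not tested. Of the Ewing sarcoma markers, CD99, NKX2-2, STEAP1 and CAV1 were present, and their summed level was 18335 to 26147 on the linear scale after doxycycline, against 28144 to 33135 at 0 h. From 0 h to 96 h the mean log2 value went from 10.38 to 7.59 for NKX2-2 and from 11.64 to 9.11 for STEAP1. It went from 13.73 to 12.98 for CAV1 and from 13.62 to 13.23 for CD99. All 5 blood and all 5 epithelial markers were below log2 4 on every array. The 5 markers of mesenchymal stroma were all present, with a summed level of 6946 to 25787 after doxycycline, against 6555 to 12298 at 0 h. Their means at 0 h and 96 h were 10.27 and 13.44 (NT5E), 5.79 and 7.82 (ENG), and 7.12 and 8.70 (PDGFRB). For ACTA2 they were 12.89 and 13.62, with 12.11 at 36 h, and for THY1 6.96 and 7.26, with 6.62 at 36 h. Of 5 endothelial markers 4 were below log2 4 throughout and KDR was not, and their summed level was 36.2 to 422 after doxycycline, against 32.6 to 36.2 at 0 h. The part of these markers in the results on proteases was not tested. Fewer cells making an RNA and less RNA per cell cannot be told apart in such bulk samples.

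Of the 52 members, 17 reached log2 4 on 2 or more arrays and were tested, while 35 did not reach log2 4 on any array. The tested members were MMP1, MMP2, MMP3, MMP10 and MMP19, ADAM9, ADAM10, ADAM12, ADAM17, ADAM19 and ADAM28, ADAMTS1 and ADAMTS3, and TIMP1, TIMP2, TIMP3 and TIMP4. A change passed the test where limma's p, adjusted over 7304 genes, was below 0.05. At 18 h 2 members were higher and 2 lower, in a comparison in which 29.4% of all genes passed, 14.8% upward and 14.7% downward. That count of 4 came to 1 with the like replicates averaged, and to as few as 1 without replicate 2 or 3 of 0 h or replicate 1 or 3 of 18 h. At 36 h 8 were higher and 1 lower, where 65.3% of all genes passed, 33.2% upward and 32.1% downward, and at 53 h 9 were higher and 1 lower, where 66.3% passed, 31.8% upward and 34.5% downward. At 72 h 10 were higher and 2 lower, where 68.5% passed, 29.3% upward and 39.2% downward. At 96 h 12 were higher and 1 lower, where 60.8% of genes passed, 25.1% upward and 35.7% downward. With the like replicates averaged, the members called were 7 upward and 1 downward at 36 h, 8 upward and 0 downward at 53 h, 11 and 2 for 72 h, and 11 and 1 for 96 h. The number of members past the threshold at 36 h, 53 h and 72 h was thus close to the share of all genes. The direction was not, since the median log2 change of the 17 members was 0.48, 0.73, 0.89 and 0.77 at 36 h, 53 h, 72 h and 96 h, against 0.02, -0.01, -0.11 and -0.10 over all genes tested. Members that passed the filter through a late rise had to differ, so these counts and medians describe the tested members and not the families as a whole. With dim genes at the lower bound of their change, the medians were 0.44, 0.60, 0.74 and 0.77. MMP10 passed at all 5 times, and ADAM28 passed at none. The moderated F test over the time course called 15 of the 17, all but ADAM19 (adjusted p = 0.0560) and ADAM28 (adjusted p = 0.165), and 84% of all genes. With the replicate numbers as a block it also called ADAM19 (limma adjusted p = 0.0246).

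**Figure D1:**
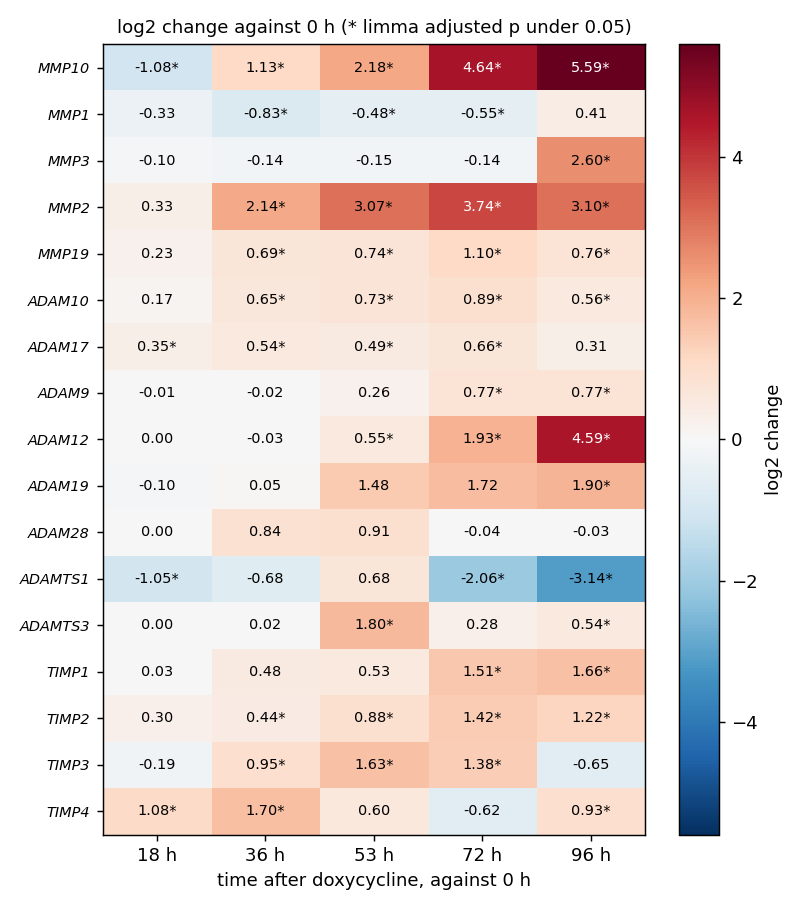
Log2 change of the 17 tested members at 18 h, 36 h, 53 h, 72 h and 96 h against 0 h, given as a number and a colour (red higher, blue lower), with a star where limma's adjusted p was below 0.05. MMP10 reached 5.59 at 96 h and ADAM12 4.59, while ADAMTS1 was at -3.14.

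MMP10, MMP1 and MMP3 are neighbours in a cluster of MMP genes on chromosome 11. Its 9 protein-coding genes from MMP7 to MMP13 were all on the array, in the order MMP7, MMP20, MMP27, MMP8, MMP10, MMP1, MMP3, MMP12 and MMP13 in the RefSeq gene table. MMP10, MMP1 and MMP3 lie next to each other, and the other 6 genes of the cluster stayed below log2 4 on every array. The 3 neighbours did not follow the same course.

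MMP10 encodes stromelysin-2, which cuts several matrix proteins and activates other MMPs. Its log2 values were 5.86, 5.46, 5.64 and 7.09 at 0 h, 5.08, 5.12 and 4.60 at 18 h, 7.31, 7.09 and 7.01 at 36 h, 8.36 and 8.03 at 53 h, 10.57 and 10.73 at 72 h, and 11.91 and 11.30 at 96 h. Replicate 4 was the high array at 0 h and overlapped the arrays of 36 h, and all arrays from 53 h on lay above those of 0 h. MMP10 averaged 11.60 ± 0.43 on the arrays of 96 h (SD, n = 2), against 6.01 ± 0.74 on those of 0 h (SD, n = 4), a rise of 5.59 ± 0.35 (SE) or 48.1-fold (limma adjusted p = 2.52e-08). It was already higher by 1.13 ± 0.31 at 36 h, 2.18 ± 0.35 at 53 h and 4.64 ± 0.35 at 72 h. At 18 h it was lower, with a log2 change of -1.08 ± 0.31 (limma adjusted p = 0.0190), and each array lay below those of 0 h. That early fall was not past the threshold with the like replicates averaged (-1.20, limma adjusted p = 0.0524), without replicate 3 of 18 h (-0.92, adjusted p = 0.0771), or when 18 h and 0 h were fitted alone (adjusted p = 0.0779).

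The promoter of MMP10 is shown because this gene had the largest measured rise of the 17, with the sites of AP-1 (the FOS and JUN factors, known to act on the promoters of several MMPs) in capitals. It covers 250 bases before the start of the gene on the minus strand, chr11:102780629-102780878, from RefSeq on GRCh38.p14.
MMP10: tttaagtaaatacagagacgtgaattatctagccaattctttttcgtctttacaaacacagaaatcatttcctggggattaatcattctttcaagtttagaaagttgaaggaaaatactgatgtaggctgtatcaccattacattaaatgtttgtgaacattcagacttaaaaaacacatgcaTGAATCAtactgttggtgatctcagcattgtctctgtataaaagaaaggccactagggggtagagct
The letters TGANTCA were searched on both strands and were found at 67 bases before the start of MMP10. They occur in 6.57% of the 35116 promoters of the same length. RefSeq promoters were at hand for 30 members, 9 of them tested (ADAM10, ADAM12, ADAM17, ADAM19, ADAMTS3, MMP10, TIMP1, TIMP3 and TIMP4), and MMP10 was the only 1 of these 9 with a match. MMP7, MMP20 and ADAMTS12, which were below log2 4 on every array, also had a match.

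MMP3 encodes stromelysin-1, close kin of MMP10. It read 4.86 and 5.41 at 96 h, against 2.37 to 2.69 on the 14 other arrays. MMP3 was therefore seen at 96 h alone, at least 2.20-fold higher there than at 0 h (limma adjusted p = 1.33e-08). Such bounds set the mean at the brighter time against log2 4, since dim values below it have no reliable size. MMP3 was also higher at 96 h than at 72 h, with a measured change of 2.73 ± 0.18 (limma adjusted p = 3.18e-07), while 27.2% of all genes passed in that comparison. MMP3 passed the filter only through its 2 arrays of 96 h, so these p-values lend no separate support.

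MMP1, the interstitial collagenase, which cuts fibrillar collagens, lies between them and went lower in the middle of the course. Its values ran from 13.68 to 14.36 at 0 h, 13.29 to 13.98 at 18 h, 13.09 to 13.37 at 36 h, 13.54 to 13.65 at 53 h, 13.48 to 13.59 at 72 h and 14.35 to 14.63 at 96 h. The 3 arrays of 36 h all lay below those of 0 h, a change of -0.83 ± 0.17 (limma adjusted p = 0.000814). It also passed, by little, at 53 h (-0.48 ± 0.20) and 72 h (-0.55 ± 0.20) (limma adjusted p = 0.0422 and 0.0235). With the replicate numbers as a block neither passed (-0.31, limma adjusted p = 0.142, and -0.37, adjusted p = 0.0812), nor did they with the arrays centred (-0.46 and -0.43). They were not past the threshold with the like replicates averaged (-0.46, adjusted p = 0.0869, and -0.53, adjusted p = 0.0549). The call at 53 h was also lost with no filter on low values, with no trend, or without any 1 of 8 arrays, and that at 72 h without replicate 4 of 0 h or either replicate of 72 h, with values from -0.54 to -0.39 and from -0.60 to -0.45. At 18 h the change of -0.33 was not past the threshold (limma adjusted p = 0.167), and was -0.47 to -0.10 without 1 array, passing without replicate 1 of 0 h and smallest without replicate 1 of 18 h. By 96 h MMP1 was 0.95 ± 0.23 higher than at 72 h (limma adjusted p = 0.00677), and 0.41 above 0 h, which was not past the threshold (adjusted p = 0.0868) but passed with the replicate block (0.59, limma adjusted p = 0.0128). Without 1 array that last value was 0.27 to 0.55, and it passed without replicate 4 of 0 h or replicate 1 of 18 h. The rise over 72 h was lost without replicate 1 of 72 h or replicate 1 of 96 h (0.90 and 0.81, p up to 0.0675).

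**Figure D2:**
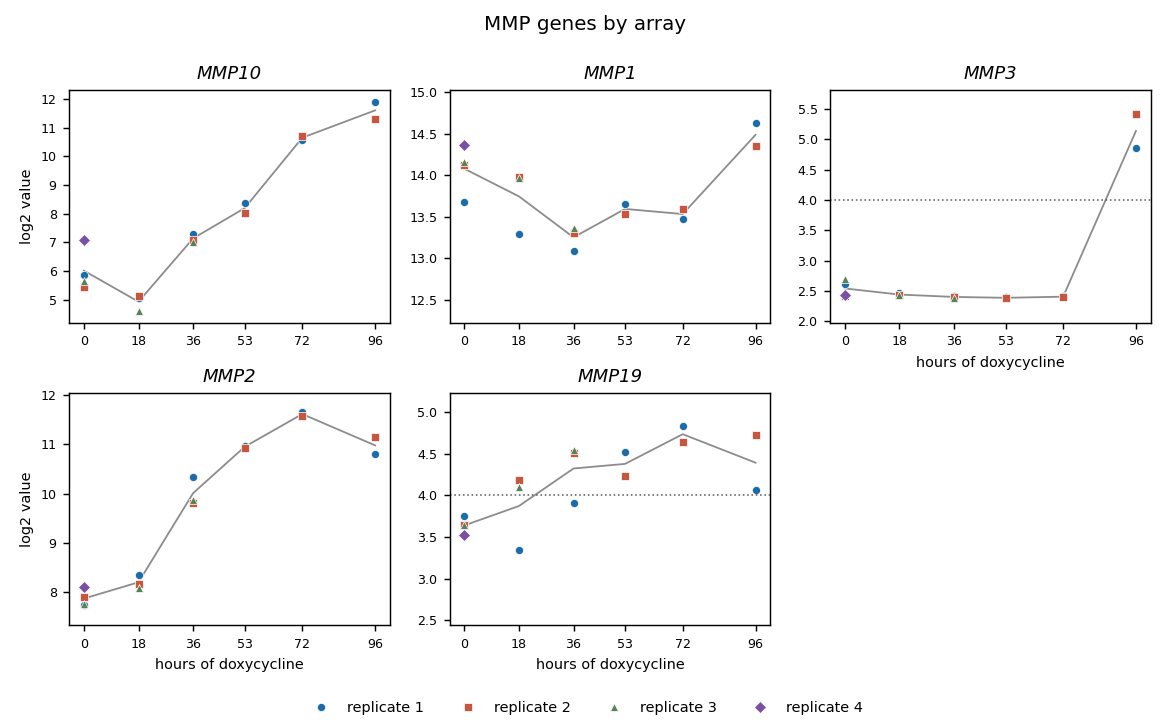
Log2 values of the 5 tested MMP genes on each of the 16 arrays against hours of doxycycline, with replicates by symbol, group means joined by a line, and log2 4 dotted where it lies in range. MMP10 and MMP2 climb from 36 h, MMP3 reads 4.86 and 5.41 at 96 h and at most 2.69 before, and MMP1 is lowest at 36 h.

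MMP2 encodes gelatinase A, which cuts collagen IV and denatured collagen. Its values were 7.73, 7.90, 7.76 and 8.10 at 0 h, 8.36, 8.17 and 8.08 at 18 h, 10.34, 9.81 and 9.88 at 36 h, 10.97 and 10.93 at 53 h, 11.65 and 11.58 at 72 h, and 10.80 and 11.15 at 96 h. From 36 h on the arrays did not overlap with 0 h. MMP2 rose by 2.14 ± 0.14 at 36 h, by 3.07 ± 0.15 at 53 h, by 3.74 ± 0.15 at 72 h and by 3.10 ± 0.15 at 96 h, or 4.39-, 8.42-, 13.3- and 8.59-fold (limma adjusted p from 2.31e-10 to 2.45e-08). It was lower at 96 h than at 72 h, with a change of -0.63 ± 0.18 (limma adjusted p = 0.0173), a call lost without either replicate of 72 h or replicate 1 of 96 h (-0.67 to -0.46). At 18 h its change of 0.33 was not past the threshold (limma adjusted p = 0.0831), and was 0.25 to 0.40 without 1 array, passing without replicate 4 of 0 h or replicate 1 of 36 h.

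MMP19 encodes an MMP that acts on basement membrane proteins. It read 3.75, 3.64, 3.65 and 3.52 at 0 h, 3.34, 4.18 and 4.10 at 18 h, 3.91, 4.51 and 4.55 at 36 h, 4.52 and 4.24 at 53 h, 4.84 and 4.64 at 72 h, and 4.07 and 4.72 at 96 h. All arrays from 36 h on lay above those of 0 h, close to the limit of log2 4. At 72 h MMP19 was at least 1.67-fold higher than at 0 h (measured change 1.10 ± 0.26, limma adjusted p = 0.00175). MMP19 passed the filter only through arrays later than 0 h, so its p-values against 0 h lend no separate support. Its changes of 0.69 at 36 h, 0.74 at 53 h and 0.76 at 96 h passed, but the call at 36 h was lost with the like replicates averaged (0.58, limma adjusted p = 0.106) or without replicate 2 or 3 of 36 h (0.59 and 0.57). The call at 53 h was lost without replicate 1 of that time (0.60) and the call at 96 h without replicate 2 of that time (0.43). Both were lost after a second quantile normalization (0.60, limma adjusted p = 0.0653, and 0.58, adjusted p = 0.0755). A second probe set of MMP19 stayed below log2 4 on all arrays.

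Among the 6 tested ADAM genes, ADAM12 had the largest change at 96 h. ADAM12 (meltrin alpha) is a protease of fusing muscle cells, mesenchyme and many tumours. It read 2.29, 2.27, 2.29 and 2.29 at 0 h, 2.29, 2.28 and 2.29 at 18 h, 2.28, 2.25 and 2.25 at 36 h, 2.27 and 3.40 at 53 h, 4.05 and 4.38 at 72 h, and 6.81 and 6.94 at 96 h. It was thus dim up to 53 h, and then the arrays of 72 h and of 96 h stood above all earlier ones. ADAM12 was at least 1.16-fold higher at 72 h (measured change 1.93 ± 0.23, limma adjusted p = 4.46e-06) and at least 7.32-fold higher at 96 h (4.59 ± 0.23, adjusted p = 2.35e-09) than at 0 h. Its level at 96 h was a further 2.66 ± 0.26 above that at 72 h (limma adjusted p = 8.03e-06). ADAM12 passed the filter only through the arrays of 72 h and 96 h. The p-values of these times against 0 h, and of 96 h against 72 h, thus lend no separate support. A change of 0.55 at 53 h passed the threshold (limma adjusted p = 0.0453) but came from replicate 2 of that time, without which it was -0.015, and was lost with the like replicates averaged (adjusted p = 0.104), with the replicate block (adjusted p = 0.0706), under the stricter filter and with only the 2 times fitted. It was also lost without any 1 of 9 of the arrays of 0 h, 18 h and 36 h, with p up to 0.0725 and a change still near 0.55. The other 3 probe sets of ADAM12 were below log2 4 on all arrays, and of these 1 was 0.93 higher at 96 h.

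ADAM12 is shown as a gene that was dim at the start. Its 250 bases, chr10:126388478-126388727 on the minus strand of GRCh38.p14 from RefSeq, hold no TGANTCA and no GGAA directly followed by GGAA (the tandem). They do hold 1 single GGAA, the core letters of sites for ETS factors such as FLI1. It lies on the opposite strand, so the printed line shows it as ttcc. Such a core, searched on both strands, occurs in 92.7% of the 35116 promoters.
ADAM12: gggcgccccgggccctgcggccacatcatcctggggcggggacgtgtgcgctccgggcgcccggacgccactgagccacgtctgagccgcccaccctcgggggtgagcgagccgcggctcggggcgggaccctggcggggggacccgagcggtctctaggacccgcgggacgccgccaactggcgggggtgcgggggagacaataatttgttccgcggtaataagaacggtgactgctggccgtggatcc
The tandem was searched on both strands and occurs in 3.06% of the 35116 promoters. Among the 9 tested members with a promoter it was found in ADAM10, at 74 and 53 bases before the start, and in TIMP1. The promoter of ADAM19 held neither TGANTCA nor the tandem.

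ADAM19 (meltrin beta), which can release neuregulin, read 4.58, 7.48, 7.07 and 6.85 at 0 h, 4.84, 7.14 and 7.21 at 18 h, 5.97, 6.88 and 6.79 at 36 h, 8.19 and 7.76 at 53 h, 8.13 and 8.30 at 72 h, and 8.78 and 8.02 at 96 h. Replicate 1 was low at 0 h, 18 h and 36 h, and all arrays from 53 h on lay above all of 0 h. It was higher by 1.90 ± 0.74 at 96 h (limma adjusted p = 0.0396), while 1.48 at 53 h and 1.72 at 72 h missed (adjusted p = 0.0949 and 0.0539). The change at 72 h passed with the like replicates averaged (1.98, limma adjusted p = 0.0495), and without replicate 2 or 3 of 0 h (up to 2.05) or replicate 1 of 18 h, as did that at 53 h without replicate 1 of 18 h (adjusted p = 0.0465). Without replicate 1 of 0 h, the low array, the changes were 0.84 at 53 h and 1.08 at 72 h. With the replicate block both passed (1.89, limma adjusted p = 0.0370, and 2.13, adjusted p = 0.0207). The call at 96 h was lost with no filter on low values, with array weights (1.35), with only the 2 times fitted, and without replicate 1 of 0 h, either replicate of 53 h, of 72 h or of 96 h, with values from 1.26 to 2.28 and limma adjusted p from 0.0502 to 0.220. A second probe set of ADAM19 was below log2 4 on all arrays.

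ADAM10 and ADAM17 are the widely expressed sheddases, the enzymes that cut Notch receptors and cadherins (ADAM10) and TNF and EGF receptor ligands (ADAM17). ADAM10 read 11.02, 10.95, 10.97 and 10.88 at 0 h, 11.11, 11.16 and 11.08 at 18 h, 11.50, 11.66 and 11.63 at 36 h, 11.72 and 11.65 at 53 h, 11.81 and 11.87 at 72 h, and 11.60 and 11.41 at 96 h. From 18 h on its arrays did not overlap with those of 0 h. It rose by 0.65 ± 0.06 at 36 h, by 0.73 ± 0.07 at 53 h, by 0.89 ± 0.07 at 72 h and by 0.56 ± 0.07 at 96 h, at most 1.85-fold (limma adjusted p from 1.05e-07 to 1.74e-05). Its 2 other probe sets were also higher at 96 h, by 0.84 and 1.02, but after 18 h, with changes of -0.01 and -0.13, neither was. The rise of 0.17 at 18 h was thus seen only by the probe set used, and was not past the threshold (limma adjusted p = 0.0608). It was 0.14 to 0.19 without 1 array, and passed without replicate 1 of 36 h or either replicate of 96 h. It also passed with the arrays centred or quantile normalized again, with array weights, and with only the 2 times fitted. ADAM17 was at 7.70 to 8.05 at 0 h, 8.13 to 8.39 at 18 h, 8.38 to 8.46 at 36 h, 8.23 to 8.51 at 53 h, 8.49 to 8.58 at 72 h and 8.001 to 8.36 at 96 h. It was higher by 0.54 ± 0.12 at 36 h, 0.49 ± 0.13 at 53 h and 0.66 ± 0.13 at 72 h. At 96 h its change of 0.31 was not past the threshold (limma adjusted p = 0.0579), and passed with the arrays centred on their medians (0.35, adjusted p = 0.0215) or quantile normalized again (0.34). Without 1 array it was 0.13 to 0.49, lowest without replicate 1 of 96 h, and it passed without replicate 1 of 0 h, replicate 1 of 18 h or replicate 2 of 96 h. At 18 h it passed with 0.35 (limma adjusted p = 0.0392), and was lost with the like replicates averaged (adjusted p = 0.118), with all probe sets averaged (0.25), with no filter on low values, with only the 2 times fitted, and without any 1 of 10 arrays (0.26 to 0.39). The call at 53 h was lost without replicate 1 of that time (0.35, adjusted p = 0.0850).

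ADAM9, another membrane sheddase, read 11.88, 12.02, 12.03 and 11.95 at 0 h, 11.84, 12.02 and 12.03 at 18 h, 12.05, 11.94 and 11.86 at 36 h, 12.19 and 12.27 at 53 h, 12.93 and 12.57 at 72 h, and 12.92 and 12.56 at 96 h. It was late, with a change of 0.77 ± 0.11 at both 72 h and 96 h (limma adjusted p = 2.76e-05 and 5.17e-05) and of 0.26 at 53 h (adjusted p = 0.0531). The last was 0.22 to 0.30 without 1 array, and passed with the arrays centred or quantile normalized again, with only the 2 times fitted, and without replicate 1 of 18 h or of 36 h or any 1 array of 72 h or 96 h, none of which enters that change. ADAM28, a protease described in lymphocytes, reached log2 4 on only 2 arrays, replicate 1 of 36 h (4.74) and replicate 1 of 53 h (4.07). Its other arrays lay between 2.51 and 2.94, and no change against 0 h passed. Without 1 array its change was 0.18 to 1.27 at 36 h and 0.31 to 1.50 at 53 h. The low ends came without replicate 1 of the time itself, and the high ends, without replicate 2 of it, passed the threshold, as did the change at 53 h without replicate 1 of 36 h, with array weights or with only the 2 times fitted.

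**Figure D3:**
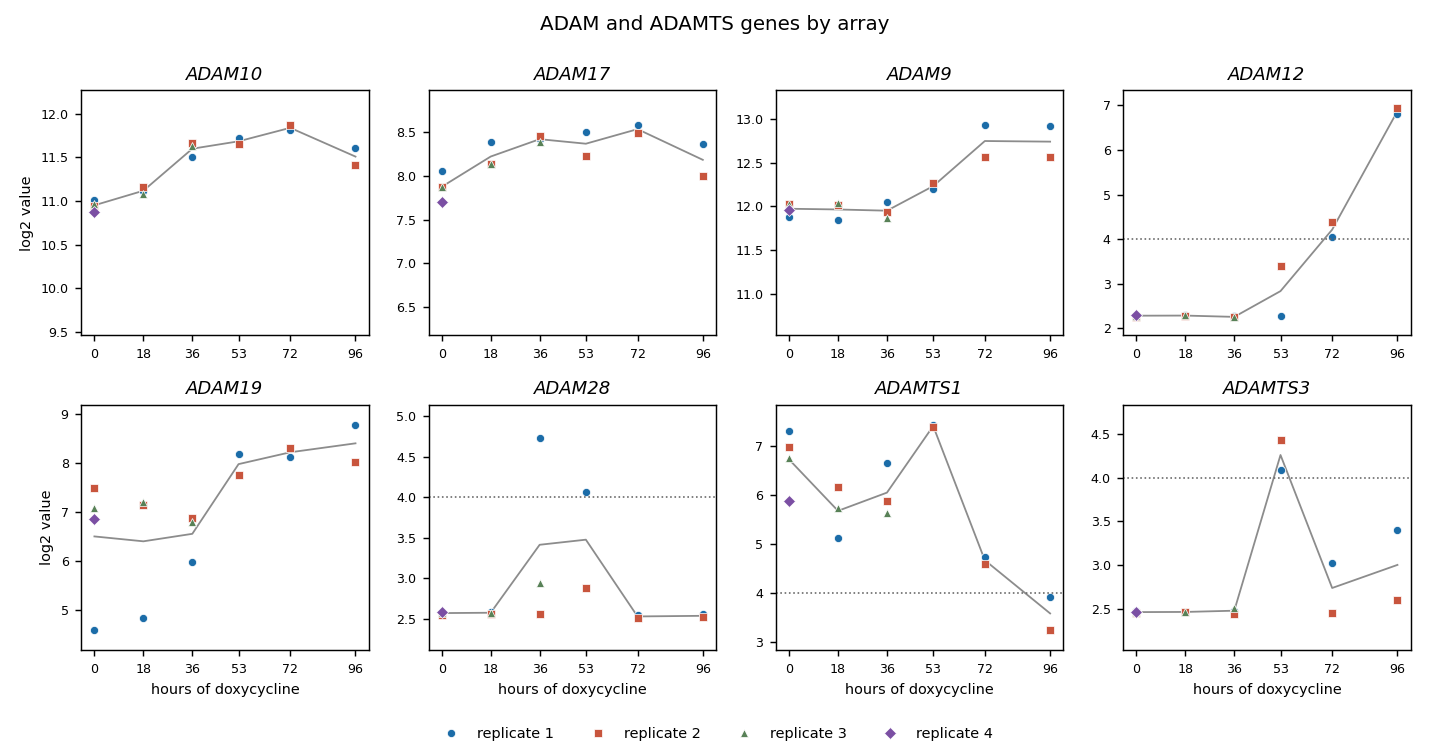
Log2 values of the 8 tested ADAM and ADAMTS genes on each array against hours of doxycycline, with replicates by symbol, group means joined by a line, and log2 4 dotted where it lies in range. ADAM12 is dim up to 53 h and at 6.81 and 6.94 at 96 h, ADAMTS1 is at 7.38 and 7.44 at 53 h and below 4 at 96 h, and replicate 1 of ADAM19 is low up to 36 h.

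ADAMTS1, which cuts versican and aggrecan, was the only tested member that passed the test as lower at 96 h. Its values were 7.30, 6.97, 6.76 and 5.87 at 0 h, 5.12, 6.17 and 5.74 at 18 h, 6.65, 5.88 and 5.62 at 36 h, 7.44 and 7.38 at 53 h, 4.74 and 4.59 at 72 h, and 3.93 and 3.24 at 96 h. Both arrays of 53 h lay above all of 0 h, and those of 72 h and 96 h below all of 0 h. ADAMTS1 was lower at 72 h, with a log2 change of -2.06 ± 0.39 (4.17-fold, limma adjusted p = 0.000305) and at least 6.62-fold lower at 96 h (adjusted p = 1.26e-05). The largest step was between 53 h and 72 h, a change of -2.74 ± 0.45 (limma adjusted p = 0.00113), in a comparison in which 16.6% of all genes passed. At 18 h ADAMTS1 was also lower, with a change of -1.05 ± 0.34 (limma adjusted p = 0.0332), though its arrays overlapped with 0 h. That call was lost with the like replicates averaged (-1.14, limma adjusted p = 0.0891), with no filter on low values, with only the 2 times fitted, and without replicate 1, 2 or 3 of 0 h or replicate 1 or 3 of 18 h (-1.08 to -0.77). At 36 h the change of -0.68 was not past the threshold (limma adjusted p = 0.0954) and passed with the replicate numbers as a block (-0.96, adjusted p = 0.0153). Without 1 array it was -0.98 to -0.46, passing without replicate 4 of 0 h or replicate 1 of 36 h and smallest without replicate 3 of 36 h. It passed with array weights (-1.07).

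ADAMTS3, which trims procollagen and helps to activate VEGFC, showed at 53 h. It read 4.09 and 4.43 at 53 h, against 2.45 to 2.47 at 0 h, and stayed below log2 4 on all arrays of the other times. ADAMTS3 was at least 1.20-fold higher at 53 h than at 0 h (measured change 1.80 ± 0.21, limma adjusted p = 4.70e-06). It was at least 1.20-fold lower at 72 h than at 53 h (limma adjusted p = 0.000903). ADAMTS3 passed the filter only through its 2 arrays of 53 h, so these p-values lend no separate support. At 96 h it read 3.40 and 2.60, and a change of 0.54 passed between values that were all dim (limma adjusted p = 0.0367), but was lost without any 1 array of 0 h or replicate 1 of 96 h (0.14 to 0.54), with the like replicates averaged (adjusted p = 0.0917), with the replicate block (adjusted p = 0.0690), with array weights and with only the 2 times fitted.

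All 4 inhibitors were measured above log2 4 on every array. TIMP1, which blocks most secreted MMPs, read 11.98, 11.16, 11.25 and 11.88 at 0 h, 12.20, 11.25 and 11.35 at 18 h, 12.55, 11.81 and 11.79 at 36 h, 12.08 and 12.13 at 53 h, 13.07 and 13.09 at 72 h, and 13.29 and 13.17 at 96 h. Replicate 1 was the highest array at 0 h, 18 h and 36 h. TIMP1 was higher by 1.51 ± 0.29 at 72 h and 1.66 ± 0.29 at 96 h, or 2.85- and 3.16-fold (limma adjusted p = 0.000384 and 0.000256). Its change of 0.48 at 36 h was not past the threshold (limma adjusted p = 0.115) and passed with the replicate numbers as a block (0.59, adjusted p = 0.0185) or array weights (0.53). It was 0.23 to 0.62 without 1 array, lowest without replicate 1 of 36 h, and none of these passed.

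The promoter of TIMP1 is shown with the GGAA tandem in capitals, at 248 bases before the start, as the other of the 2 tested members that held it. It covers chrX:47582186-47582435 on the plus strand of GRCh38.p14, from RefSeq.
TIMP1: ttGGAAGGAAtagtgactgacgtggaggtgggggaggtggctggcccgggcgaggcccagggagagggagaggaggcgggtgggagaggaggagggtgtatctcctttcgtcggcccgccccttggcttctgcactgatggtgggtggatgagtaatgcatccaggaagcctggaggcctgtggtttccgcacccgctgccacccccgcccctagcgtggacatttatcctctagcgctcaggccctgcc
No TGANTCA was found in it.

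TIMP2, which both blocks MMP2 and helps a membrane MMP to activate it, read 8.23, 8.58, 8.47 and 8.58 at 0 h, 8.54, 8.86 and 8.89 at 18 h, 9.24, 8.74 and 8.74 at 36 h, 9.22 and 9.48 at 53 h, 9.98 and 9.80 at 72 h, and 9.50 and 9.87 at 96 h. From 36 h on its arrays lay above those of 0 h. TIMP2 rose by 0.44 ± 0.15 at 36 h, by 0.88 ± 0.17 at 53 h, by 1.42 ± 0.17 at 72 h and by 1.22 ± 0.17 at 96 h (limma adjusted p = 0.0197, 0.000447, 5.43e-06 and 3.94e-05). The call at 36 h was lost without replicate 1 of 0 h or of 36 h (0.36 and 0.27). MMP14, the best known membrane activator of MMP2, stayed below log2 4 on all arrays by all 4 of its probe sets, with a highest value of 3.53. Between these dim values, the changes of the 4 probe sets at 72 h against 0 h were 1.52, 0.84, 0.55 and 0.002. They were not tested.

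TIMP3, the inhibitor that binds to matrix and also blocks ADAM17 and ADAMTS enzymes, rose at 36 h, 53 h and 72 h, and was lower at 96 h than at 72 h. Its values were 9.05, 10.07, 9.90 and 9.37 at 0 h, 8.81, 9.69 and 9.72 at 18 h, 10.51, 10.54 and 10.61 at 36 h, 11.21 and 11.24 at 53 h, 11.09 and 10.86 at 72 h, and 8.79 and 9.11 at 96 h. The arrays of 36 h, 53 h and 72 h all lay above those of 0 h, and those of 96 h overlapped with them. TIMP3 was higher by 0.95 ± 0.24 at 36 h, 1.63 ± 0.28 at 53 h and 1.38 ± 0.28 at 72 h (limma adjusted p = 0.00350, 0.000150 and 0.000533). It was lower at 96 h than at 72 h, with a change of -2.02 ± 0.32, a 4.07-fold difference (limma adjusted p = 0.000406), while its change of -0.65 at 96 h against 0 h was not past the threshold (adjusted p = 0.0575). That last change passed without replicate 1 of 0 h (-0.83, limma adjusted p = 0.0126), without replicate 1 of 18 h or with array weights, and was smallest without replicate 1 of 96 h (-0.48). The other 3 probe sets of TIMP3 changed less at 36 h, by 0.07 to 0.45, and with all 4 averaged the calls at 36 h (0.41, limma adjusted p = 0.243) and 72 h (0.77, adjusted p = 0.0593) were lost, while the changes of the 4 at 96 h against 0 h were -0.84 to -0.65.

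TIMP4, the inhibitor with the narrowest tissue range, changed from 18 h on, in more than 1 direction. It read 6.89, 6.05, 5.88 and 6.34 at 0 h, 7.87, 7.24 and 7.01 at 18 h, 7.80, 8.29 and 7.87 at 36 h, 6.77 and 7.01 at 53 h, 5.77 and 5.57 at 72 h, and 7.15 and 7.29 at 96 h. The arrays of 18 h, 36 h and 96 h lay above all of 0 h and those of 72 h below all of 0 h. TIMP4 was higher by 1.08 ± 0.24 at 18 h and 1.70 ± 0.24 at 36 h (limma adjusted p = 0.00468 and 3.04e-05), and was the 1 member of the 4 called at 18 h whose call held in all 27 other settings. Its peak at 36 h fell at the time of the highest ACTB ratio given above, and the part of RNA quality in it was not tested. A change of -0.62 at 72 h was not past the threshold (limma adjusted p = 0.0561) and passed with the like replicates averaged (-0.73, adjusted p = 0.0386), the replicate block (-0.75, adjusted p = 0.0288) or a second quantile normalization. It was -0.76 to -0.42 without 1 array, passing without replicate 2 or 3 of 0 h or replicate 1 or 3 of 18 h and smallest without replicate 1 of 0 h. At 53 h its change of 0.60 missed it (limma adjusted p = 0.0657), and was 0.46 to 0.80 without 1 array, passing without replicate 1 of 0 h or of 18 h. It passed with array weights (0.84). TIMP4 was lower at 72 h than at 53 h (-1.22 ± 0.31, limma adjusted p = 0.0177) and higher at 96 h than at 72 h (1.55 ± 0.31, adjusted p = 0.00249). The step between 53 h and 72 h was lost without any 1 of its 4 arrays (-1.34 to -1.10). Against 0 h it was higher by 0.93 ± 0.27 at 96 h (limma adjusted p = 0.00921), a call lost without replicate 2 of 96 h (0.86, adjusted p = 0.0684).

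**Figure D4:**
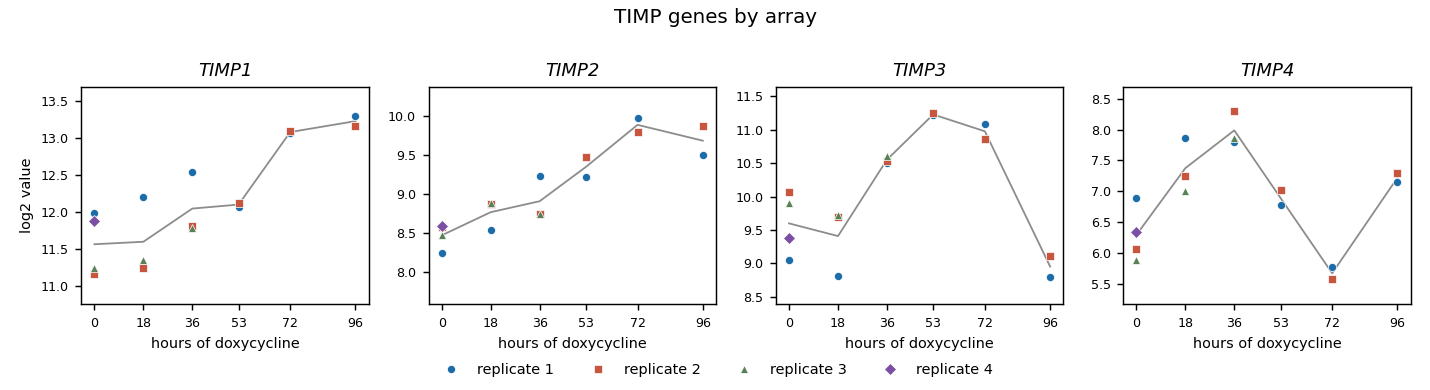
Log2 values of the 4 TIMP genes on each array against hours of doxycycline, with replicates by symbol and group means joined by a line. TIMP1 and TIMP2 are highest at 72 h and 96 h, TIMP3 is highest at 53 h and at 8.79 and 9.11 at 96 h, and TIMP4 is highest at 36 h and lowest at 72 h.

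By the time of the highest mean, 1 member peaked at 36 h (TIMP4), 4 at 53 h (ADAM28, ADAMTS1, ADAMTS3 and TIMP3), 6 at 72 h (ADAM9, ADAM10, ADAM17, MMP2, MMP19 and TIMP2) and 6 at 96 h (ADAM12, ADAM19, MMP1, MMP3, MMP10 and TIMP1). These peaks were not tested, and the share of all genes peaking at each time was not counted. ADAM28, ADAMTS1 and MMP1 did not pass as higher than 0 h at any time. The means of ADAM9 at 72 h and 96 h were nearly equal (12.746 and 12.739). Of neighbouring times, 2 pairs were compared. In the comparison of 72 h with 53 h 4 members were higher (MMP2, MMP10, ADAM9 and ADAM12) and 3 lower (ADAMTS1, ADAMTS3 and TIMP4), where 16.6% of all genes passed, 5.61% upward and 11% downward. That count of 7 fell to as few as 4 without replicate 1 of 53 h or replicate 1 of 72 h. In that of 96 h with 72 h 4 were higher (MMP1, MMP3, ADAM12 and TIMP4) and 3 lower (MMP2, ADAM10 and TIMP3), where 27.2% passed, 17.1% upward and 10.1% downward. ADAMTS3 passed the filter only through arrays of 53 h, MMP3 only through those of 96 h, and ADAM12 only through those of 72 h and 96 h. The counts of both steps thus include members tested because of their high arrays at the times compared. They describe the tested members and lend no support to an excess over the share of all genes. MMP10 gained 2.46 ± 0.41 between 53 h and 72 h (limma adjusted p = 0.00133), and its further change of 0.95 between 72 h and 96 h was not past the threshold (adjusted p = 0.102) and passed without replicate 4 of 0 h (adjusted p = 0.00834) or with the replicate block (adjusted p = 0.00384). It was 0.65 to 1.26 without 1 array. The gains of ADAM9 and MMP2 at 72 h over 53 h were 0.52 and 0.66 and were lost without replicate 1 of either time (ADAM9, 0.34 and 0.48) or any 1 of the 4 arrays (MMP2, 0.63 to 0.70). ADAM10 was lower at 96 h than at 72 h (-0.33 ± 0.08), a call lost without replicate 2 of either time (-0.30 and -0.24), with all probe sets averaged (-0.28) and with only the 2 times fitted. At 96 h against 18 h, where 49.4% of all genes passed, 19.5% upward and 30% downward, 10 members were higher and 1, ADAMTS1, was lower. Of these calls, that of ADAM19 was lost with the like replicates averaged, with all probe sets averaged, with no filter on low values, with no trend, with array weights, with only the 2 times fitted or without any 1 of 11 arrays. That of MMP1 was lost with only the 2 times fitted or without replicate 1 of 96 h (0.60). Those of MMP3 and ADAM12 lend no separate support, because of the filter.

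Genes outside the families that activate, anchor or block metalloproteinases were taken from a list of 27, of which 19 were tested. The lists here were chosen with earlier results of these data known, so their counts and medians are descriptions and not tests. Of all genes, 60.8% were called at 96 h, 25.1% upward and 35.7% downward, with a median log2 change of -0.10. Among the 19 genes of this list 14 were higher at 96 h and 1 lower, with a median of 1.34. Those with the smallest p were SPOCK1, a testican, at least 79.7-fold higher, PLAT, the tissue plasminogen activator, higher by 6.97 ± 0.39, TFPI2, a serine protease inhibitor of the matrix, by 7.30 ± 0.43, the broad protease trap A2M, at least 35.9-fold higher, CD63, a tetraspanin that binds TIMP1, by 1.21 ± 0.11, and SERPINE2 by 1.08 ± 0.10. Chosen after their values were seen, FURIN, which removes the propeptide of ADAMs and membrane MMPs, was higher by 1.49 ± 0.17, and RECK, a membrane inhibitor of MMPs, by 1.34 ± 0.29. Of 28 proteins of the matrix on which these enzymes act, 19 were tested. At 96 h 17 were higher and 0 lower, with a median of 2.21, where 25.1% of all genes were higher and 35.7% lower. Among them LAMA4 was at least 67.6-fold higher, COL1A2 was higher by 4.38 ± 0.15, COL4A2 by 2.41 ± 0.13, SPARC by 1.70 ± 0.09, FBN1 by 3.68 ± 0.24 and LAMC1 by 2.21 ± 0.16 (limma adjusted p below the threshold for each). VCAN, the versican that ADAMTS1 cuts, was at least 143-fold higher at 96 h (limma adjusted p = 4.80e-06), and was also chosen after its values were seen.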

How the data were processed

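Each of 16 Affymetrix arrays had 1 log2 value per probe set, deposited by the authors and computed by GCRMA according to the submitters' processing notes. GCRMA models background from probe sequence and brings arrays to a shared distribution. Neither version nor settings were stated in what was used here, and the log2 scale was inferred from a maximum of 15.2. Columns of other samples numbered 0. Nothing in the labels tells whether numbered replicates were separate cultures, so p-values reflect only the spread among these samples, which may be technical.

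Of 22277 probe sets, 19070 had 1 gene symbol in the platform annotation, 1043 several and 2164 none, and only the first were used. Each of 11963 genes was represented by its probe set with the highest mean. Genes needed log2 4 on at least 2 arrays, which left 7304. The limma package 3.58.1 (R 4.3.3) fitted all models (1 mean per time over all 16 arrays, eBayes with a trend), and p-values were adjusted by Benjamini-Hochberg over genes, with a threshold of 0.05. The fit was tested on simulated data. Files were read with the data.table package (version 1.17.8), and promoters and figures were handled in Python 3.11.15 with pandas 2.3.3 and matplotlib 3.10.9. Comparisons of 72 h with 53 h and of 96 h with 72 h were added after the data were seen. The members and lists were chosen with earlier results of these data known.

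Array values are given for the 12 members with the largest change among those past the threshold at 96 h, for every TIMP, and for members past it at 18 h with a change of at least 1. Of each list at most 6 genes past the threshold at 96 h were named by smallest p. Genes named beside them are marked as chosen after their values were seen. Promoters were read for the 4 members with an entry and the largest rise at 96 h (MMP10, ADAM12, ADAM19 and TIMP1), and that of ADAM19, which held neither motif, is not printed.

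Deviations from the group means correlated within replicate numbers 1, 2 and 3 as follows. Between 0 h and 18 h they gave 0.632, 0.545 and 0.508. Between 0 h and 36 h the values were 0.304, 0.214 and 0.286. For 18 h and 36 h, correlations of 0.366, 0.244 and 0.331 were found. Unlike numbers 2 and 3 correlated about as well, with 0.550 for replicate 3 of 0 h and replicate 2 of 18 h. Replicate 2 of 18 h and replicate 3 of 36 h gave 0.360. Replicate 1 of 0 h and replicate 2 of 18 h gave -0.588. The values thus set replicate 1 apart but do not tell replicates 2 and 3 from each other. The labels give no pairing, and pairing at 53 h, 72 h and 96 h was not checked. A block for the number was an alternative. Other alternatives were the filter, the choice of probe set, a second quantile normalization, centring, eBayes without a trend, array weights, averaging replicates 2 and 3, fitting only the times compared, and leaving out each array.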

Additional observations from a re-analysis of the deposited data

Results flagged for a closer look

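MMP10 was lower at 18 h and higher at 96 h than at 0 h, and the direct comparison of these times gave a log2 change of 6.67 ± 0.37 (SE) for 96 h against 18 h (limma adjusted p = 1.58e-08, n = 2 against 3). It stands here because the changes at 96 h and at 18 h against 0 h ran in opposite directions and the difference itself passed the test. Both effects were measured against the same 4 arrays of 0 h. Its fall at 18 h was lost with the like replicates averaged, while the difference between 96 h and 18 h passed in every setting tried. Dixon's test at the 95% level marked no array at 0 h for any of the 17 tested members. With only 4 arrays the test has little power, so this does not show that no array was outlying. It left unmarked the low replicate 1 of ADAM19 and the high replicate 4 of MMP10, and leaving out either array changed calls. A further 29 probe sets, which carry several symbols or a related one (ADAM3A, ADAM3B or MMP24OS) or were not the one used for a member below log2 4, were looked at too. None of them was above log2 4 on all arrays of a later time and at least 1 above every array of 0 h.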

How the results depend on the processing

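Of 73 member changes that passed, 49 kept their direction and call in each of the 27 other settings in which they could be computed. Late times had 2 arrays each, and a lone array left at a time was assumed to vary like the others. Members called at 18 h numbered 4, against 2 with no filter on low values, 8 with array weights, 1 with replicates 2 and 3 averaged and 2 with only the 2 times fitted, and 1 to 6 without 1 array. Without a filter all 52 genes entered, and 23 members were called at 36 h, 24 at 72 h and 27 by the F test, among them genes below log2 4 on every array, where 6459, 6575 and 7785 of all 11963 genes were called. Leaving out probe sets that can match several transcripts left 4431 genes, of which 1320, 2855, 2933, 3020 and 2694 were called at 18 h, 36 h, 53 h, 72 h and 96 h, 2106 between 96 h and 18 h, 720 between 72 h and 53 h, 1124 between 96 h and 72 h, and 3677 by the F test. Genes called at 18 h numbered 3546 with array weights, 1269 with replicates averaged and 1353 to 2443 without 1 array. Without 1 array, members called between 72 h and 53 h numbered 4 to 10, and genes 468 to 1445, and genes called between 96 h and 72 h numbered 1234 to 2227. ADAM12 at 53 h was -0.015 to 1.12 without 1 array (-0.015 without replicate 2 of 53 h), and ADAMTS3 at 96 h against 72 h was -0.13 to 0.66 without 1 array (-0.03 without replicate 2 of 72 h, -0.13 without replicate 1 of 96 h). At 53 h, 72 h and 96 h, which share 2 numbers with 0 h, the replicate block ended the calls of ADAM12 (0.55, limma adjusted p = 0.0706) and MMP1 (-0.31, adjusted p = 0.142) at 53 h, MMP1 at 72 h (-0.37, adjusted p = 0.0812) and ADAMTS3 at 96 h (0.55, adjusted p = 0.0690). It added ADAM19 at 53 h (1.89, limma adjusted p = 0.0370) and 72 h (2.13, adjusted p = 0.0207), TIMP4 at 72 h (-0.75, adjusted p = 0.0288), MMP1 at 96 h (0.59, adjusted p = 0.0128), TIMP1 between 72 h and 53 h (0.98, adjusted p = 0.0153), and ADAM17, ADAMTS1 and MMP10 between 96 h and 72 h (-0.35, -1.09 and 0.95). With the 2 changes at 36 h given above and ADAM19 in the F test it changed no other member's call. The causes of these shifts were not tested. A change of centre moved the median of all genes at 72 h against 0 h to 0.01, against -0.11 as deposited.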

Other observations

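Of 26 surface proteins known to be released by ADAMs or MMPs, 17 were tested. At 96 h against 0 h 15 were higher and 1 lower, with a median log2 change of 1.37 (60.8% of all genes passed, 25.1% upward, median -0.10). This list and those below were also chosen with earlier results known, so their counts are descriptions and not tests. L1CAM, a neural adhesion protein, was higher by 4.09 ± 0.26 (SE), CDH2 (N-cadherin) by 2.12 ± 0.13, ALCAM by 1.83 ± 0.18, VCAM1 by 3.52 ± 0.35, PRNP by 0.92 ± 0.09 and CD44 by 2.99 ± 0.36. NOTCH1, cut by ADAM10 on ligand binding, was the member that was lower, with a change of -1.02 ± 0.23, and NOTCH2 was higher by 0.74 ± 0.15 (both chosen after their values were seen).

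Of 23 other secreted or membrane metalloproteases and their helpers, 7 were tested, with 4 higher and 1 lower at 96 h, where 60.8% of all genes passed. BMP1, a procollagen protease, was higher by 3.13 ± 0.21, its enhancer PCOLCE by 1.89 ± 0.12, the carboxypeptidase CPE by 1.88 ± 0.37 and ECE1 by 1.03 ± 0.15. PAPPA, which cuts IGF binding proteins, had a change of -2.14 ± 0.17. Of 16 AP-1, ETS and NF-kB genes, 14 were tested, with 6 higher and 1 lower, where 25.1% of all genes were higher and 35.7% lower. ETS2 was at least 4.92-fold lower, and ELK3, NFKB1, FOSL2, JUNB and ETV1 were higher, FOSL2 by at least 1.52-fold, JUNB by 2.61 ± 0.68, NFKB1 by 0.73 ± 0.12, ELK3 by 0.70 ± 0.11 and ETV1 by 0.59 ± 0.16. JUN read 9.85 at 96 h and 9.83 at 0 h on average and did not pass. KDR, the endothelial marker that was measured, averaged 3.66 at 0 h and 3.97 at 18 h. Its means were 6.56 at 36 h and 8.57 at 53 h, then 7.38 (72 h) and 5.20 (96 h).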
